A study of Mus musculus with 7 samples.

Results

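Cytosolic ribosomal protein genes were examined in mouse hippocampus. They were taken by symbol: protein-coding genes named Rpl or Rps followed by a digit, together with Rpsa, Rplp0, Rplp1 and Rplp2, without the ribosomal S6 kinases, Rps19bp1, Rpl7l1, Rpl22l1 and pseudogenes. Of 55416 gene identifiers, 83 met the symbol rule, and 79 of them had at least 10 counts summed over the 7 libraries. Just outside this minimum lay Rps27rt, Rpl10l and Rpl3l with 2 counts each and 1 identifier named Rpl24 (ENSMUSG00000098274) with 6, and just inside lay Rpl36al with 21 and Rpl39l with 84. The 79 genes comprised 44 of the large (60S) subunit, 32 of the small (40S) subunit and the 3 stalk genes. All but Rpl36al passed the filter on low counts, so that 78 were among the 13152 genes tested.

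RNA-seq was performed on hippocampus of male, age-matched, outbred CD1 mice without any genetic change in 3 groups. Control mice (3 libraries, replicates 1, 2 and 3) were untreated. ONX-0914-treated mice (2 libraries, replicates 1 and 2) received 10 mg/kg of ONX-0914, an inhibitor of immunoproteasome subunits, intraperitoneally 2 times a week for 2 months, and DMSO-treated mice (2 libraries, replicates 2 and 3) received the same volume of the vehicle on the same schedule. Hippocampi hold many cell types, so in bulk RNA fewer cells of a type and less RNA per cell cannot be told apart. The labels do not state which animals the libraries came from, and p-values measure only the spread between these libraries.

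A ribosome is built from ribosomal RNAs and a fixed set of proteins, with the small subunit decoding the mRNA and the large subunit joining amino acids. Because each protein is needed in the same number of copies, except for the stalk proteins, the genes are usually expressed in step. Their mRNAs are TOP mRNAs, which begin with a run of pyrimidines and whose translation is controlled by mTOR through LARP1. Free Rpl5 and Rpl11 also bind Mdm2 and thereby link ribosome assembly to p53. In neurons, ribosomal protein mRNAs are common in axons and dendrites.

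The start sites of these genes illustrate what the members share. In the RefSeq promoter table (GRCm38.p6), 59 of the 79 genes had an entry, with 70 windows. Within 10 bases before to 30 bases after the annotated start, on the transcribed strand, CTTTC or CTTCC was found in 33 of 70 windows (47.1%) against 4056 of 32851 windows of all genes (12.3%). The letters GGAAGT or their complement ACTTCC were found on either strand, from 250 bases before to 50 after the start, in 47.1% against 23.8%. The 2 searches overlap, since ACTTCC contains CTTCC. On the transcribed strand of the same windows, TATAAA was found in 7.14% against 8.32%. Shown are 20 bases before to 30 after the start of the 4 genes that lay highest and the 4 that lay lowest, relative to control, in ONX-0914 replicate 2, the library with the widest spread among these genes. They were taken among genes with a single window, after the values were seen. Capitals mark CTTTC or CTTCC. Of the highest 4, Rpl39 lies at chrX:37085193-37085242 (minus strand), Rps28 at chr17:33824533-33824582 (minus), Rps27 at chr3:90213619-90213668 (minus) and Rpsa at chr9:120127746-120127795 (plus).
Rpl39: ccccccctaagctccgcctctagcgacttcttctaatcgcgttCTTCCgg
Rps28: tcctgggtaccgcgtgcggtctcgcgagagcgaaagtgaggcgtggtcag
Rps27: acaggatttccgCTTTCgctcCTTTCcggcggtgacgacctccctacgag
Rpsa: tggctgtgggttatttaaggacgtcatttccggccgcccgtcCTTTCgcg

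Of the lowest 4, Rpl39l lies at chr16:10170208-10170257 (plus strand), Rpl41 at chr10:128549139-128549188 (minus), Rpl5 at chr5:107900508-107900557 (plus) and Rps3 at chr7:99483680-99483729 (minus).
Rpl39l: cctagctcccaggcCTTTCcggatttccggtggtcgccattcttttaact
Rpl41: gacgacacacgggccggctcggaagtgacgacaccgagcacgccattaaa
Rpl5: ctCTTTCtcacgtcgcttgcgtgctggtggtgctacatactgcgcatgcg
Rps3: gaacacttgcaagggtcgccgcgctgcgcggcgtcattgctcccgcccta
Capitals are set over the whole 50 bases shown. Within the window counted above they stand in 3 of the highest 4 genes and in 1 of the lowest 4, since those of Rpl5 begin farther upstream. Their presence is a description of the sequence, not of a site in use.

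The libraries held between 2842675 and 13782270 counts on genes, the most in ONX-0914 replicate 2, with at most 3877006 elsewhere. Levels are given in CPM (counts divided by the TMM-scaled library size), in which 3 counts were worth 0.198 CPM in the deepest library and 0.755 to 1.07 CPM elsewhere. Both ONX-0914 libraries stood apart from the rest in markers of other tissue. In ONX-0914 replicate 1, 13 of 14 thalamus and midbrain markers and 12 of 12 striatum markers lay above all control libraries, with summed levels of 1443 and 1422 CPM against 153 to 215 and 237 to 275 CPM in the control and DMSO libraries; in ONX-0914 replicate 2 these sums were 191 and 212 CPM. Of 8 CA3 markers, which define a field of the hippocampus, 7 lay below all control libraries in replicate 1 and 5 in replicate 2, with sums of 527 and 852 CPM against 1847 to 1965 CPM, and none of them was at 0. Of 8 dentate gyrus markers 7 and 5 lay below all controls, with sums of 165 and 451 CPM against 396 to 555 CPM. CA1 markers split, with 6 of 7 below all controls in replicate 1 (280.1 CPM) and 5 of 7 above in replicate 2 (749 CPM), against 517 to 583 CPM. Endothelial markers were higher in both, with 9 and 10 of 10 above all controls and sums of 332 and 335 CPM against 189 to 245 CPM. Neuron markers had sums of 13433 and 14111 CPM against 17537 to 20483 CPM. Of these 13, 6 lay below and 5 above all controls in replicate 1, and 12 below and 1 above in replicate 2. Oligodendrocyte markers split, with sums of 10567 CPM in replicate 1 and 4703 CPM in replicate 2 against 5400 to 9932 CPM. Of 6 blood markers, 5 lay above all control libraries in each ONX-0914 library. Their sums were 97.4 CPM in replicate 1 and 839 CPM in replicate 2, against 30.02 to 46.4 CPM in the control and DMSO libraries. The counts of mitochondrially encoded genes made up 3.71% of ONX-0914 replicate 2 and 0.818% to 1.59% of the others. The part of these differences in the results on ribosomal protein genes was not tested.

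In untreated hippocampus, ribosomal protein genes were expressed at very unequal levels. Together they took 1.09% ± 0.0719 of all counts (SD, n = 3). Levels were divided by the length of 1 annotated transcript for each gene. It was the principal transcript (any coding one where none was marked principal) with the longest coding sequence, and the shortest of these at ties. The most abundant were Rpl41 (ENSMUSG00000093674), which encodes the shortest protein of the ribosome, with 2822 CPM per kilobase, the small subunit gene Rps14 with 1801, Rpl9 with 701, Rps15 with 664 and Rpl8 with 535. The least abundant tested genes per kilobase were Rpl39l with 6.11, Rpl39 with 6.17, Rps10 with 8.18, Rpl26 with 13.7 and Rps20 with 14.3, the last on an annotated transcript of 3706 bases. The 3 genes Rpl41, Rps14 and Rps3, held 25.9% to 27.3% of the counts of all 79 in the control libraries. Levels of a single gene were nevertheless steady between control libraries, with a median coefficient of variation of 9.33% over the 73 genes of 10 CPM or more against 9.44% over all 9307 genes tested of that level.

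Counts of these genes depend on copies elsewhere in the genome. The annotation names 1 to 24 pseudogenes for 59 of the 79 genes and none for 20. The line for reads mapped to several places holds 0 in all 7 libraries, and how reads shared with near-identical copies were treated is not given in the sources used here, so each level is uncertain to that extent. Reads counted on the 294 annotated ribosomal protein pseudogenes were few, with summed levels of 249, 302 and 227 CPM in control, 303 and 344 CPM in DMSO and 169 and 152 CPM in ONX-0914 libraries.

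**Figure D1:**
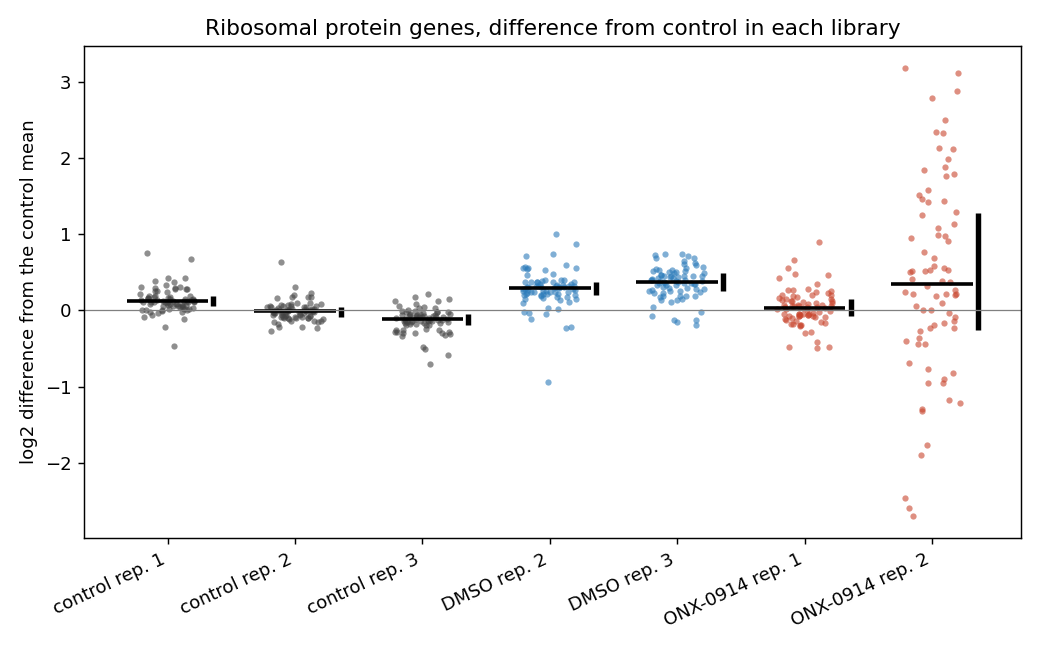
Log2 difference of each of the 78 tested ribosomal protein genes from the mean of the control libraries (y axis, 0.5 CPM added) in each of the 7 libraries (x axis). Each point is a gene, the horizontal line is the median and the vertical bar spans the quartiles. The median lies at 0.29 and 0.38 in the DMSO libraries and at 0.04 in ONX-0914 replicate 1, and the points of ONX-0914 replicate 2 spread from -2.69 to 3.17.

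The comparison of DMSO-treated with untreated mice shows what the vehicle and the injections went with. On balance, ribosomal protein genes lay higher in the DMSO libraries by a small amount. Their share of all counts was 1.28% and 1.41% in the DMSO libraries against 1.16%, 1.09% and 1.02% in control replicates 1, 2 and 3, so the groups did not overlap (1.34% ± 0.0908, SD, n = 2, against 1.09% ± 0.0719, n = 3). The median log2 fold change (Log2FC) was 0.33 against -0.00 over all genes tested. Log2FC was positive for 73 of 78 genes, while 49.5% of all genes tested had a positive value.

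Both DMSO libraries lay above all 3 control libraries for 59 of 78 genes (75.6%), against 15.7% of all genes tested. Both lay below all controls for 0 of 78, against 15%. Genes of 1 library share its scaling and are not independent of each other. The SD of the log2 difference over these genes was 0.25 and 0.21 in the DMSO libraries, and 0.40 and 0.44 over all genes. No gene passed an FDR of 0.05 in the edgeR quasi-likelihood test over all 7 libraries, where 0.0152% of all genes tested did. At an unadjusted p under 0.05 there were 6 of 78, all higher, against 2.65% of all genes (1.48% higher). DESeq2, which called 0.0186% of the genes it tested, also called 0. The same held for limma voom, which called 0 of all 13152 genes tested.

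Genes of the stalk and of the large subunit showed this separation. Rplp1, which with Rplp2 forms the stalk that recruits elongation factors, had 167, 188 and 145 CPM in control and 244 and 224 CPM in DMSO libraries. Rpl36a had 55.3, 52.3 and 46.0 CPM in control and 75.1 and 80.3 CPM in DMSO libraries. Rpl31 (ENSMUSG00000073702), a protein near the exit of the peptide tunnel, had 48.1, 46.1 and 39.1 CPM against 73.2 and 68.5 CPM. In all 3 genes each DMSO library lay above each control library. Over all libraries the Log2FC of DMSO against control was 0.60 ± 0.17 for Rpl36a, 0.68 ± 0.23 for Rpl31 and 0.49 ± 0.37 for Rplp1 (standard error), with an edgeR FDR of 0.99994 for each.

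The highest Log2FC was that of Rpl39 (ENSMUSG00000079641), a short protein of the peptide tunnel, at 0.72 ± 0.88, from only 11 to 27 counts per library in these groups. Rpsa (ENSMUSG00000032518), the laminin receptor and small subunit protein, had 93.0, 54.0 and 38.5 CPM in control and 97.4 and 96.0 CPM in DMSO libraries. The DMSO libraries lay above the controls, although control replicate 1 was close to them. Rps10, Rpl35a and Rps19 had the lowest Log2FC, at -0.62 ± 0.54, -0.20 ± 0.29 and -0.16 ± 0.32, and in each the DMSO and control libraries overlapped. Rps19, the gene mutated most often in Diamond-Blackfan anaemia, had 40.3, 38.7 and 23.1 CPM in control and 30.6 and 30.3 CPM in DMSO libraries.

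The difference was of like size in both subunits. The median Log2FC was 0.33 over 43 tested genes of the large subunit, 0.30 over 32 of the small subunit and 0.36 over the 3 stalk genes, and 41, 29 and 3 genes had positive values. In a model of the control and DMSO libraries alone, 7 of 78 were called, all higher (among them Rpl31, Rpl36a, Rplp1, Rpl9, Rpl23 and Rpl14), with an edgeR FDR between 0.0144 and 0.0499, where 1.11% of all genes tested were called and 0.717% were called higher. With ONX-0914 replicate 1 left out, 4 were called, all higher, against 0.955% of all genes (0.627% higher). With ONX-0914 replicate 2 left out, 7 were called, all higher, against 1.07% (0.704% higher). Mitochondrially encoded genes held 1.59% of the counts in both DMSO libraries against 0.818% to 1.24% in control, and the summed level of 10 oligodendrocyte markers was 8399 and 9932 CPM against 5400 to 8122 CPM. The part of these differences in the result was not tested.

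**Figure D2:**
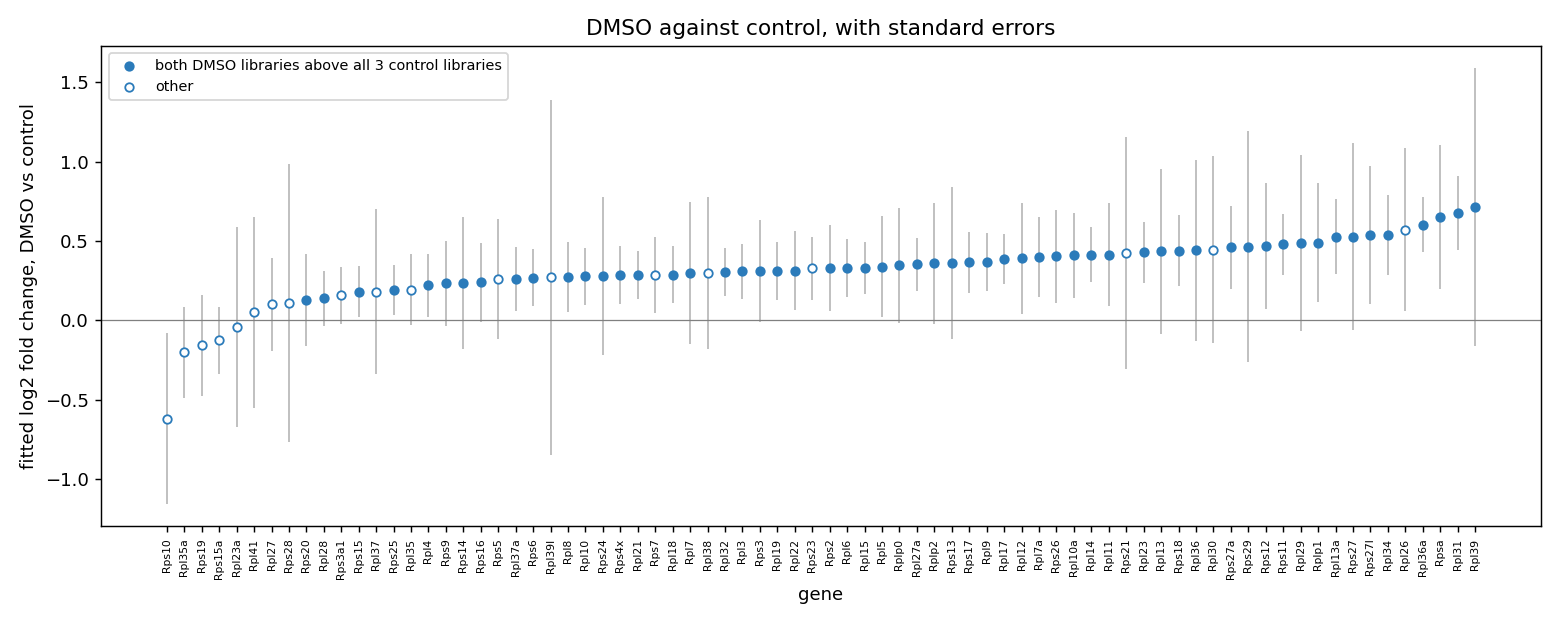
Fitted Log2FC of DMSO against control (y axis) for 76 of the 78 tested genes (x axis, sorted), with standard errors from the model of all 7 libraries. Filled points are the 57 of these genes in which both DMSO libraries lay above all 3 control libraries, and 71 of the 76 values are above 0.

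The comparison of ONX-0914-treated with untreated mice asks what the inhibitor with its vehicle went with, and the 2 ONX-0914 libraries gave unlike answers. In replicate 1 the ribosomal protein genes lay close to control, with a median log2 difference of 0.04 and an SD over genes of 0.24. In replicate 2 the median was 0.35 and the SD 1.29. Over all tested genes the SD was 0.68 in replicate 1 and 0.81 in replicate 2. As a share of all counts the ribosomal protein genes held 1.18% and 1.23%, above every control library, but on the scaled CPM their sums of 11457 and 11245 lay within the control range of 10613 to 12096.

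The calls for ONX-0914 against control differed between tools. In the edgeR test over all 7 libraries 0 of 78 ribosomal protein genes had an FDR under 0.05 against 0.114% of all genes tested. At an unadjusted p under 0.05 there were 23, of which 22 were higher, against 18.6% of all genes (10.6% higher and 8.04% lower). DESeq2 called 5, all higher (Rpl39, Rps2, Rps24, Rps27 and Rpsa), where it called 2.6% of the genes it tested (0.958% higher). Limma voom called 0, where it called 18 of all 13152 genes tested. With no filter on low counts edgeR called 13, all higher, against 2.15% of all genes (1.27% higher). The median Log2FC was 0.22 against 0.05 over all genes, and 51 of 78 were positive against 53.8% of all genes. Both ONX-0914 libraries lay above all control libraries for 12 genes (15.4%) against 16.9% of all genes, and below for 4 genes (5.13%), namely Rpl21, Rpl3, Rpl5 and Rps3a1, against 16.3%.

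The stalk genes were higher in replicate 2 alone. Rplp0, the base of the stalk, had 86.3, 75.3 and 69.1 CPM in control, 86.7 and 109 CPM in DMSO, and 69.0 and 182 CPM in ONX-0914 libraries. Rplp1 was at 157 CPM in the first and 449.9 CPM in the second ONX-0914 library. Rplp2 had 47.4, 43.9 and 40.5 CPM in control, 52.8 and 59.97 CPM in DMSO, and 42.0 and 121 CPM in ONX-0914 libraries. In all 3 genes replicate 2 was the highest library of the 7 and replicate 1 lay within or just below the control range. The Log2FC against control was 0.72 ± 0.35, 0.87 ± 0.37 and 0.91 ± 0.37 with an edgeR FDR of 0.310, 0.261 and 0.243. The ratio of Rplp1 to Rplp2 counts, which does not depend on scaling, was 3.71 in replicate 2, against 3.53 to 4.61 elsewhere.

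Of the small subunit, the genes with the largest Log2FC were Rps29, Rps28, Rps21 and Rps27, all with coding sequences of at most 300 bases. Rps29 had 29.95, 20.7 and 17.4 CPM in control, 30.9 and 31.4 CPM in DMSO, and 22.4 and 194 CPM in ONX-0914 libraries. Rps28 had 10.7, 9.82 and 6.06 CPM in control, 11.3 and 7.50 CPM in DMSO, and 6.04 and 66.7 CPM in ONX-0914 libraries. In both genes replicate 1 lay within or just below the control range, and replicate 2 alone carried the difference. Rps21 had 39.9, 28.4 and 27.5 CPM in control and 22.4 and 219 CPM in ONX-0914 libraries, so that replicate 1 was below all controls and replicate 2 above all. Rps27, with a zinc-finger fold, had 31.7, 26.2 and 21.2 CPM in control and 27.2 and 149 CPM in ONX-0914 libraries. Log2FC against control was 2.28 ± 0.69 for Rps29, 2.10 ± 0.76 for Rps28, 1.94 ± 0.70 for Rps21 and 1.76 ± 0.56 for Rps27, with edgeR FDRs between 0.163 and 0.210. Without ONX-0914 replicate 2 these values were 0.0073, -0.53, -0.49 and 0.057.

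Rpsa and Rps2 (ENSMUSG00000044533), which lies at the entry of the mRNA channel, were higher in both ONX-0914 libraries. Rpsa had 109 and 295 CPM in the ONX-0914 libraries, both above the 38.5 to 97.4 CPM of the other 5 libraries. Rps2 had 74.2, 69.0 and 63.1 CPM in control, 81.8 and 90.7 CPM in DMSO, and 94.9 and 185 CPM in ONX-0914 libraries, again without overlap. The pseudogene Rps2-ps13 lay the other way, with 158, 169.6 and 129 CPM in control, 179 and 199.5 CPM in DMSO, and 74.5 and 48.8 CPM in ONX-0914 libraries (Log2FC -1.31 ± 0.23, edgeR FDR 0.0728). Another copy, Rps2-ps10, had at most 1.07 CPM in control and DMSO libraries and 16.1 and 6.81 CPM in ONX-0914 libraries. The Rpsa copy Rpsa-ps10 had 18.5, 33.3 and 30.8 CPM in control and 20.4 and 24.99 CPM in DMSO libraries. In the ONX-0914 libraries Rpsa-ps10 had 1.51 CPM, from 6 counts, in replicate 1 and 63.2 CPM in replicate 2. It thus lay opposite to Rpsa in replicate 1 and on the same side in replicate 2. How reads were divided between Rps2 or Rpsa and these copies was not tested. Rpsa and Rps2 were the only 2 of 78 genes in which both ONX-0914 libraries lay above both DMSO libraries. Log2FC against control was 1.72 ± 0.45 for Rpsa and 1.03 ± 0.27 for Rps2 (edgeR FDR 0.133 for both). Rps3a1 went the other way with 164, 137 and 140 CPM in control, 142 and 186 CPM in DMSO, and 104 and 111 CPM in ONX-0914 libraries (Log2FC -0.45 ± 0.18, edgeR FDR 0.243). All 3 were called when replicate 2 was left out, with Log2FC of 0.84, 0.47 and -0.50 and edgeR FDRs of 0.0152, 0.0298 and 0.0305, where 19.0% of all genes tested were called (9.52% higher and 9.5% lower). They were the 3 genes of 78 called in that fit, in which the single ONX-0914 library is assumed to vary like the other groups.

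Other small subunit genes with known roles lay on both sides of control. Rps6, the substrate of S6 kinases and a common readout of mTOR, had 135, 124 and 112 CPM in control, 143 and 155 CPM in DMSO and 148 and 116 CPM in ONX-0914 libraries (Log2FC 0.09 ± 0.18 for ONX-0914 against control). Rps27a, which is made as a fusion with ubiquitin, had 82.4, 60.5 and 60.3 CPM in control and 76.0 and 130 CPM in ONX-0914 libraries (Log2FC 0.61 ± 0.26, edgeR FDR 0.254). Rps19 had 28.7 and 49.8 CPM in the ONX-0914 libraries, and Rps10 had 4.28, 4.64 and 3.30 CPM in control and 3.77 and 1.85 CPM in ONX-0914 libraries. The Rps10 values rest on 28 counts in replicate 2 and the groups overlap in replicate 1. Rps3, a protein of the mRNA entry site, was at 306 CPM in replicate 2 against 674 to 924 CPM in the other 6 libraries, and Rps14 was at 316 CPM against 986 to 1305 CPM.

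In the large subunit, the highest and lowest genes lay far apart. Rpl39 had 3.92, 2.999 and 4.41 CPM in control, 7.24 and 4.998 CPM in DMSO and 4.53 and 37.7 CPM in ONX-0914 libraries (Log2FC 2.56 ± 0.73 against control, edgeR FDR 0.152). Rpl41 had 1242, 1228 and 1230 CPM in control, 1200 and 1355 CPM in DMSO, and 1347 and 205 CPM in ONX-0914 libraries. Replicate 2 was the highest of the 7 libraries for Rpl39 and the lowest for Rpl41. Rpl23a, the docking site of the signal recognition particle, had 9.98 to 13.2 CPM in 6 libraries and 1.72 CPM, from 26 counts, in replicate 2. Rpl29 had 12.48, 11.7 and 13.8 CPM in control, 15.02 and 20.7 CPM in DMSO and 14.6 and 3.04 CPM in ONX-0914 libraries. Log2FC was -0.67 ± 0.61, -1.12 ± 0.66 and -0.69 ± 0.58 for Rpl41, Rpl23a and Rpl29 (edgeR FDR 0.564, 0.381 and 0.531), and without replicate 2 it was 0.12, -0.10 and 0.20.

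Rpl5 and Rpl11, the partners in the 5S particle, were lower in replicate 2 by a like factor. Rpl5 had 283, 279 and 277 CPM in control, 325 and 383 CPM in DMSO, and 272 and 114 CPM in ONX-0914 libraries. Rpl11 had 400, 348 and 324 CPM in control, 438 and 514 CPM in DMSO and 374 and 157 CPM in ONX-0914 libraries. The ratio of Rpl11 to Rpl5 counts was 1.38 in replicate 2, against 1.17 to 1.41 elsewhere. Rpl10, which joins the subunit late, had 144 CPM in replicate 2 against 145 to 207 CPM elsewhere, and Rpl22 had 90.1 CPM against 161 to 231 CPM. Rpl9 and Rpl8 had 351 and 281 CPM in replicate 2 against 460 to 616 and 413 to 575 CPM elsewhere, and Rps15 had 333 CPM within a range of 314 to 378 CPM.

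**Figure D3:**
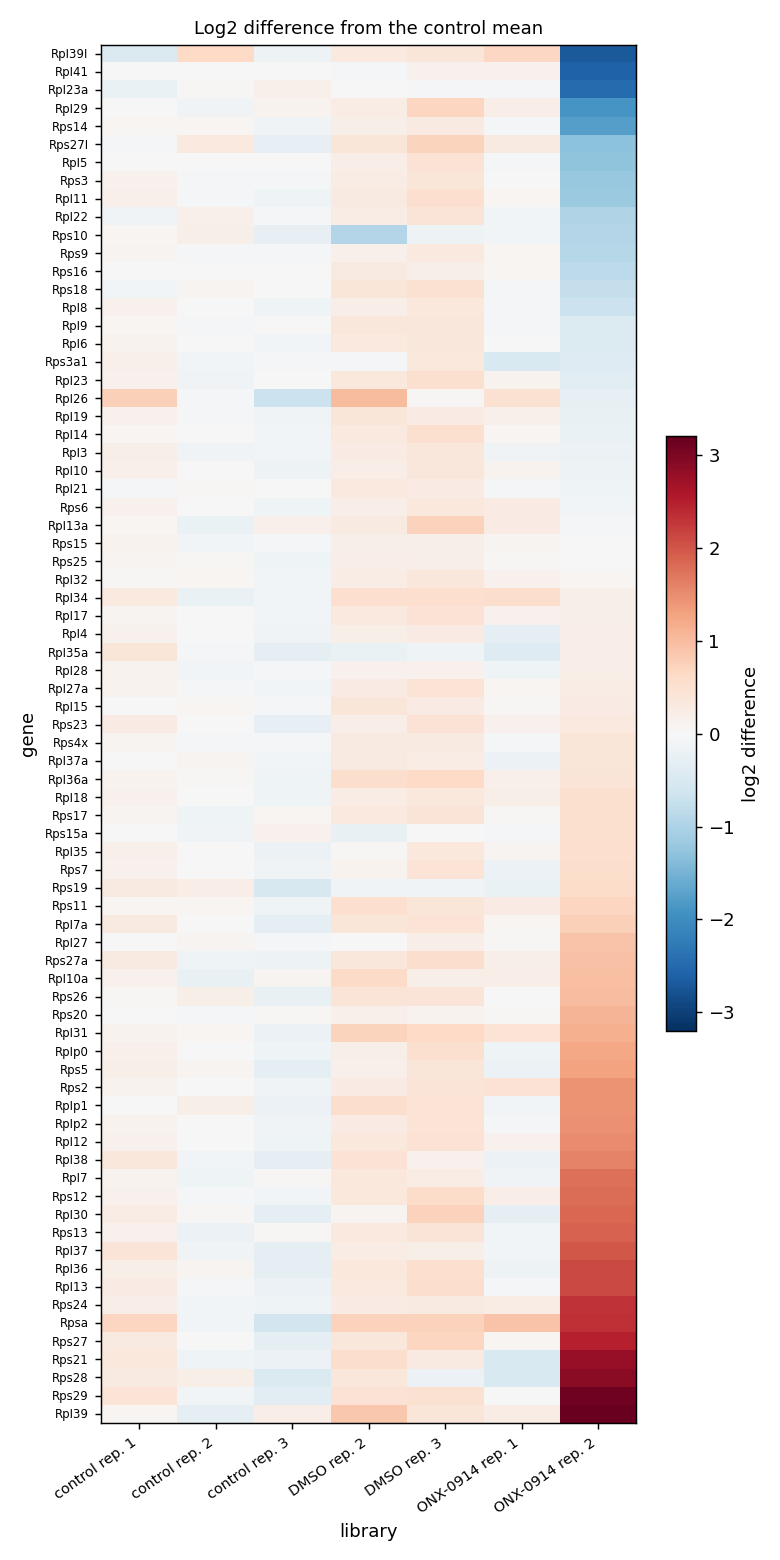
Log2 difference from the control mean (colour, 0.5 CPM added) for 76 of the 78 tested genes (rows, sorted by ONX-0914 replicate 2) in the 7 libraries (columns). The DMSO columns are faintly red in most rows, and only ONX-0914 replicate 2 holds strong colours, from Rpl39l at -2.69 to Rpl39 at 3.17.

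The wide spread in ONX-0914 replicate 2 can be read on raw counts within each library, without scaling. Rpl41 had 25.7 to 60.1 times the counts of Rps21 in the other 6 libraries and 0.934 times in replicate 2. Rps14 had 37.4 to 56.8 times the counts of Rps29 elsewhere and 1.63 times there. Rps3 had 68.7 to 123 times the counts of Rps28 elsewhere and 4.59 times there. These pairs were chosen after the values were seen, from the genes farthest apart. The 3 most abundant genes held 11.2% of all ribosomal protein counts in replicate 2 (Rpl4, Rplp1 and Rpl9) and 24.6% to 27.3% elsewhere (Rpl41, Rps14 and Rps3 in each of the 6). The interquartile range of log2 CPM per kilobase over the 78 genes was 1.08 in replicate 2, against 1.82 to 1.98 elsewhere. The SD of the same quantity went the other way, at 1.92 in replicate 2 against 1.63 to 1.70 elsewhere, and includes Rpl39l at 1 count in replicate 2.

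Replicate 2 lay above all 6 other libraries for 39 of 78 genes (50%), against 30.3% of all genes tested, and below all for 23 (29.5%), against 29.2%. By more than 2-fold it lay above all others for 17 genes (21.8%, all genes 2.71%) and below all others for 9 (11.5%, all genes 4.87%). Without replicate 1, which leaves replicate 2 as the only ONX-0914 library, edgeR called 58 of 78 genes, 39 higher and 19 lower, where 51.2% of all genes tested were called (24.8% higher and 26.4% lower). The 11 genes with a coding sequence of at most 300 bases held the extremes in both directions, with a median log2 difference of 1.99 in replicate 2 and an SD of 2.27, against 0.24 and 1.04 over the 67 longer ones. Across the 78 genes, the difference in replicate 2 had a Spearman correlation of -0.46 with the level in the DMSO libraries, -0.26 with coding length, -0.13 with transcript length, 0.15 with the number of annotated pseudogenes and -0.06 with GC content. These are descriptions across genes that share 1 library.

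**Figure D4:**
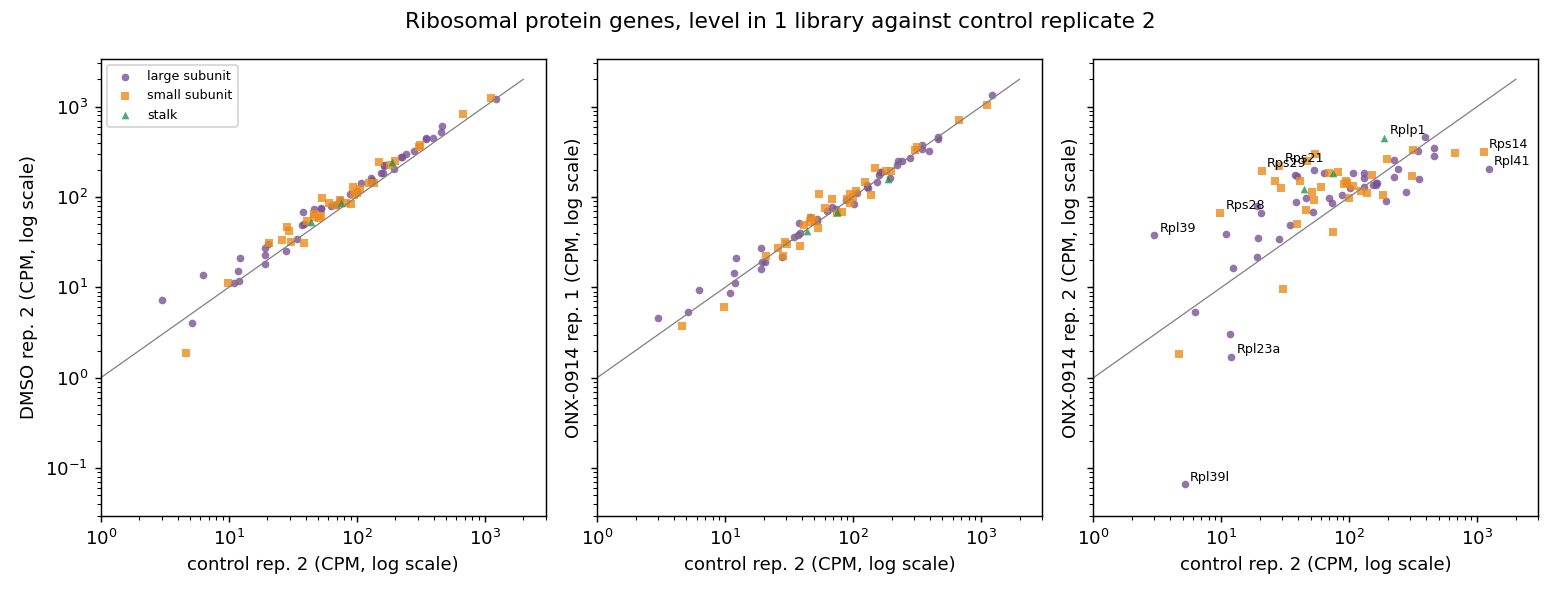
Level of the 78 tested genes in DMSO replicate 2, ONX-0914 replicate 1 and ONX-0914 replicate 2 (y axes, CPM, log scale) against control replicate 2 (x axes, CPM, log scale), with the line of equality. The first 2 panels follow the line, and in the third Rpl41 lies at 205 CPM against 1228 CPM in control and Rps28 at 66.7 CPM against 9.82 CPM.

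The comparison of ONX-0914-treated with DMSO-treated mice sets the inhibitor in its vehicle against the vehicle alone. It shares its DMSO and ONX-0914 libraries with the comparisons above. The ONX-0914 libraries also differed from the DMSO libraries in the tissue markers given above, so inhibitor and tissue content cannot be told apart. Ribosomal protein genes lay, on balance, slightly below DMSO, with a median Log2FC of -0.11 against 0.05 over all genes tested. Positive values were found for 34 of 78 genes, against 53.8% of all genes. In edgeR 0 of 78 genes had an FDR under 0.05 against 0.0456% of all genes. DESeq2, which called 1.7% of the genes it tested, and limma voom, which called 6 of all 13152, also called 0. At an unadjusted p under 0.05 there were 15, 4 higher and 11 lower, against 14.7% of all genes (8.08% higher and 6.65% lower). The sign of the median depended on scaling, since it was 0.027 with total counts in place of TMM and 0.040 with offsets for length and GC content.

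Both ONX-0914 libraries lay below both DMSO libraries for 28 of 78 genes (35.9%), against 19.7% of all genes tested, and above for 2 (2.56%), against 20.8%. The 28 included Rpl5, Rpl11, Rpl9, Rpl8, Rpl3 and Rpl22 of the large subunit and Rps3, Rps14 and Rps18 of the small subunit. The median Log2FC was -0.21 for the large subunit, -0.02 for the small subunit and 0.38 for the stalk. Rpl9 had 616 and 613 CPM in DMSO and 464 and 351 CPM in ONX-0914 libraries (Log2FC -0.59 ± 0.20, edgeR FDR 0.261). Rpl3, the large subunit protein near the catalytic centre, had 445 and 481 CPM in DMSO and 343 and 325 CPM in ONX-0914 libraries (Log2FC -0.47 ± 0.19, edgeR FDR 0.314). Without ONX-0914 replicate 2, 9 genes were called, all lower (among them Rpl4, Rplp1, Rps21, Rps3a1, Rpl9, Rps18, Rpl3 and Rpl37a), against 17% of all genes (8.46% lower), with a median of -0.30. Without replicate 1, 56 were called, 29 higher and 27 lower, against 46.0% of all genes (22.3% higher and 23.7% lower).

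Paralog copies of ribosomal protein genes were compared with their parents. Rpl39l, a copy of Rpl39, had 6, 19 and 10 counts in control, 15 and 12 in DMSO and 21 in ONX-0914 replicate 1, but 1 count in ONX-0914 replicate 2, the deepest library. Rpl39 had 11, 11, 16, 27, 14, 18 and 571 counts in the same order, so the parent exceeded the copy 571-fold in replicate 2 and 0.579- to 1.83-fold elsewhere. As the lower value is a single count, this ratio has a wide error. Rps27l, a copy of Rps27 that is a target of p53, ranged from 20.4 to 30.5 CPM in control libraries, was at 31.9 and 40.3 CPM in DMSO libraries and at 29.95 and 9.52 CPM in ONX-0914 libraries. Rps27 and Rps27l had nearly equal counts in 6 libraries, with a ratio of 0.857 to 1.35, and a ratio of 15.7 in replicate 2. Rpl36al, the copy of Rpl36a that did not pass the filter, had 1 to 7 counts per library, against 155 to 1031 for Rpl36a, and no fold change is given for it.

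**Figure D5:**
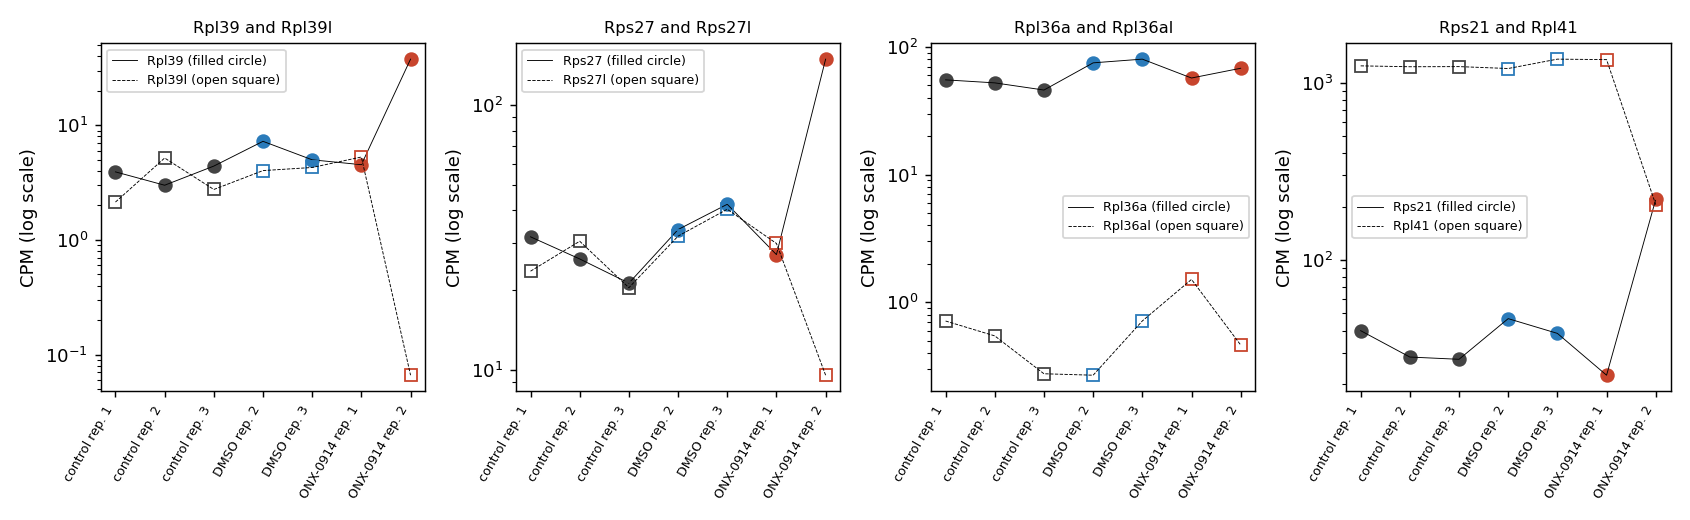
CPM (log scale) of parent genes (filled circles) and a copy or contrasting gene (open squares) in the 7 libraries, coloured grey for control, blue for DMSO and red for ONX-0914. Rpl39 and Rpl39l, and Rps27 and Rps27l, run together in 6 libraries and part in ONX-0914 replicate 2, where Rps21 and Rpl41 meet at 219 and 205 CPM.

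Proteins of the ribosome whose genes have other names were not members. Fau, which encodes a ubiquitin-like fusion of a small subunit protein, had 117, 87.0 and 97.5 CPM in control, 132 and 145 CPM in DMSO, and 100 and 108 CPM in ONX-0914 libraries. Like most members, Fau was higher in both DMSO libraries than in all controls, with a Log2FC of 0.46 ± 0.18 (edgeR FDR 0.99994). Rack1, a scaffold on the small subunit, had 93.8, 80.4 and 69.9 CPM in control, 104 and 121 CPM in DMSO and 74.0 and 200 CPM in ONX-0914 libraries. Rpl7l1, Rpl22l1 and Rps19bp1 have similar symbols and were left out by the rule. Their Log2FC for ONX-0914 against control was -0.09 ± 0.31, 0.21 ± 0.27 and 0.85 ± 0.34. For DMSO against control it was 0.35 ± 0.31, 0.20 ± 0.28 and 0.60 ± 0.37, positive as in most members.

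Related gene groups gave no calls. None of their genes had an edgeR FDR under 0.05 in any comparison. Of all genes tested, 0.114% did for ONX-0914 against control, 0.0152% for DMSO against control and 0.0456% for ONX-0914 against DMSO. At an unadjusted p under 0.05 for ONX-0914 against control, all genes tested gave 18.6% (10.6% higher and 8.04% lower). Of 77 mitochondrial ribosomal protein genes 10 passed, all higher. The same held for 24 of 84 nuclear genes of the respiratory chain, all higher, and for 10 of 63 genes of ribosome biogenesis, 3 higher and 7 lower. Of 37 initiation factor genes 2 were higher and 3 lower, of 10 elongation genes 1 and 1, of 23 genes of the mTOR and LARP1 pathway 4 and 1, and of 10 p53 targets 2 and 1. None of 9 genes of nascent-chain handling or of 9 TOP-type snoRNA host genes passed.

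The median Log2FC for DMSO against control was 0.08 for mitochondrial ribosomal proteins, 0.17 for the respiratory chain, 0.03 for ribosome biogenesis, 0.08 for initiation, 0.17 for elongation, 0.29 for snoRNA hosts, 0.13 for mTOR and LARP1, 0.07 for p53 targets and 0.25 for nascent-chain genes. Each was below the 0.33 of the cytosolic ribosomal protein genes. For ONX-0914 against control the same medians were 0.21, 0.25, -0.25, -0.14, -0.14, -0.25, 0.11, 0.25 and -0.12. The 2 ONX-0914 libraries were unlike here too. In the same order, the median log2 differences from control were 0.10, 0.16, -0.03, 0.006, -0.05, -0.02, 0.03, 0.02 and -0.09 in ONX-0914 replicate 1. They were 0.31, 0.35, -0.60, -0.29, -0.50, -0.52, 0.21, 0.44 and -0.14 in replicate 2. Mitochondrial ribosomal proteins had a summed level of 1736 to 1859 CPM in control, 1835 and 1913 CPM in DMSO and 1905 and 1890 CPM in ONX-0914 libraries, and ribosome biogenesis genes had 4615 and 2348 CPM in the ONX-0914 libraries against 4654 to 5043 CPM in the other 5. Among them Nop2, a 60S assembly factor, had 33.5 and 19.4 CPM in the ONX-0914 libraries against 41.1 to 49.0 CPM elsewhere (Log2FC -0.83 ± 0.26 against control, edgeR FDR 0.166).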

How the data were processed

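Total RNA of mouse hippocampus (RNA integrity number of at least 8) was made into directional libraries and sequenced as 100-base single reads. The files deposited by the authors hold unnormalized counts for each gene, with 1 file for each library. The submitters' processing notes name Trimmomatic 0.39, STAR 2.7.3a, featureCounts 2.00 and GRCm39; the annotation and the strand setting are not given in the sources used here. Reads on genes were 89.6% to 91.4% of those in the files; reads outside genes (4.75% to 6.49%) and ambiguous reads (3.75% to 3.92%) stayed out of library sizes and tests.

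Symbols, transcript lengths and types came from GENCODE M21 (GRCm38), so no gene coordinates were printed other than those of the RefSeq table (GRCm38.p6). These counts were fitted with edgeR 4.0.16 under R 4.3.3. The quasi-likelihood test and the Benjamini–Hochberg adjustment are those named by the study, and the other settings were chosen here: filterByExpr, TMM (factors 0.965 to 1.10), glmQLFit and glmQLFTest over all 7 libraries with 1 mean per group, a prior count of 0.125, and adjustment over all genes tested with an FDR threshold of 0.05. The model's common coefficient of biological variation was 0.249. Standard errors come from the F statistics. Log2 differences from control used 0.5 CPM added to CPM. Every pair of replicates differed by more than sampling noise.

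The genes, lists and tests were chosen with earlier results of these data known. Named were the largest increases and decreases (5 each for ONX-0914, 3 each for DMSO, against control), the 5 most and 5 least abundant per length, genes with set roles, and paralog copies with their parents. Rps2, its 2 copies, Rpsa-ps10, Rps3a1, Rps24 and other genes that were called under an alternative or did not overlap were named after their values were seen. Alternatives were DESeq2 1.42.0, limma 3.58.1 (voom), other scalings, filters and prior counts, offsets for length and GC content, the compared groups alone, a replicate block, and leaving out each library. The floor of 3 counts covers counting error only, while the standard errors of Log2FC include the spread between libraries. Results of a few genes are not reported here, and the plots that label each gene leave them out.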

Additional observations from a re-analysis of the deposited data

How the results depend on the processing

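With 2 or 3 libraries a group, results for ONX-0914 rested on single libraries. Leaving out each library in turn, the number of genes called ranged from 0 to 58 for ONX-0914 against control, from 0 to 7 for DMSO against control and from 0 to 56 for ONX-0914 against DMSO, and the medians from 0.034 to 0.33, from 0.28 to 0.40 and from -0.30 to 0.075; the extremes for ONX-0914 came from leaving out replicate 2 or replicate 1 of that group. In the fits without 1 of the control libraries, 0 of all genes tested were called in each comparison. Shares of counts ranged from 1.06% to 1.13% in control, 1.28% to 1.41% in DMSO and 1.18% to 1.23% in ONX-0914 libraries. Single genes that changed direction for ONX-0914 against control were Rpl29 (-2.06 to 0.20), Rpl39l (-1.07 to 0.60), Rpl41 (-2.60 to 0.12), Rps21 (-0.49 to 2.79) and Rps28 (-0.53 to 2.92), and for DMSO against control Rpl35a (-0.35 to 0.012). Rpl39l could not be given without ONX-0914 replicate 1, as 1 count was left. For ONX-0914 against control, 13 genes were called without a filter and 5 with DESeq2, and for DMSO against control 7 in the compared groups alone; the cause was not tested. Total counts moved the median of all genes in the ONX-0914 comparisons from 0.05 to 0.19, and that of ribosomal protein genes to 0.36 against control and 0.027 against DMSO, where length and GC offsets gave 0.040. On scaled CPM the ONX-0914 share was 1.14%. Deviations of same-numbered libraries from their group means had correlations between -0.10 and 0.06. With 2 libraries in a group the deviations mirror each other, so these values cannot decide whether the replicate numbers pair the libraries. With a replicate block, edgeR called 0 ribosomal protein genes in each comparison, where it called 1, 0 and 0 of all 13152 genes tested. The medians were 0.18, 0.31 and -0.10.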
